A study of Homo sapiens with 9 samples.

Results

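A set of 10 genes known as targets of DUX4, a transcription factor of the cleavage-stage embryo, was followed in A2780 cells exposed to DIG-MSK. They were ZSCAN4, MBD3L2, KHDC1, TRIM48, TRIM49, TRIM51, TRIM64, PRAMEF12, PRAMEF6 and PRAMEF15, which is 10 of the 21813 genes tested, and the array carried 11 probes for them. The genes were chosen by these same measurements, for levels above those of untreated cells at 8 nM DIG-MSK and under them at 80 nM, so these differences are given as a description and without a test. A2780 is a long-established cell line from a human ovarian carcinoma. DIG-MSK is an analog of the antibiotic mithramycin A, which attaches to C/G-rich DNA through its minor groove. Untreated cells, cells incubated for 24 h with 8 nM DIG-MSK and cells incubated for 24 h with 80 nM DIG-MSK gave 3 arrays each, all from that same line.

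DUX4 carries a pair of homeodomains and is encoded within a macrosatellite repeat. It is active for a short time in the cleavage-stage embryo, where it switches on a set of genes that includes ZSCAN4, the MBD3L2 group, KHDC1 relatives, and the TRIM and PRAMEF families expanded in primates. Most adult cell types keep the repeat silent through DNA methylation and repressive chromatin, and its release in skeletal muscle is the basis of facioscapulohumeral muscular dystrophy. The gene for DUX4 itself was not analysed here.

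Each value below is a level, that is, the log2 of the processed spot intensity after subtraction of its array's 75th percentile, and a difference of levels is a log2 fold change. A probe counted as measured on an array when Feature Extraction, the scanner software, placed it well above background. The dimmest probe so placed had a level between -6.18 and -5.68, depending on the array. The 75th percentile of the intensity lay between 831.7 and 1170, and 24800 to 27123 probes were well above background on each array. The untreated and 8 nM arrays shared a slide and a scan, whereas the 80 nM arrays were all on another slide with another scan, so an effect of 80 nM and an effect of the slide cannot be told apart. Of 7 epithelial markers, EPCAM, KRT8, KRT18, KRT19 and KRT7 were well above background on all 9 arrays, while CDH1 was not on any of them. Of 5 ovarian carcinoma markers, ESR1 was well above background on all 9 arrays, and WT1, MUC16 and MSLN were not on any. The germ cell markers DDX4, DAZL, SYCP3 and TNP1 were below background on all 9 arrays, and the summed linear level of the 5 germ cell markers, in units of the 75th percentile, was 0.0304 to 0.0427 without drug, 0.0306 to 0.0356 at 8 nM and 0.0486 to 0.0867 at 80 nM. The summed level of 3 fibroblast markers, of which DCN and PDGFRA were well above background on all untreated arrays, was 2.51 to 3.02 without drug, 2.82 to 3.4 at the low and 0.131 to 0.165 at the high concentration. That of 4 skeletal muscle markers was 0.13 to 0.152, 0.144 to 0.315 and 0.243 to 0.274 in the same order. Of these, MYOG and ACTA1 were well above background on all 9 arrays, and CKM was below background on all 9. The part of these markers in the results was not tested.

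The promoters of the genes are shown first, because DIG-MSK binds C/G-rich DNA and DUX4 binds an A/T-rich site. Each window holds 250 bases before the transcription start and 50 after it, from RefSeq on GRCh38.p14, and all 10 genes matched an entry of that table, KHDC1 with 2 promoters. Capitals mark the letters TAANNNAATCA, a form of the site of a homeodomain pair, searched on both strands, in the promoters of MBD3L2, TRIM48 and TRIM51. In the first promoter of KHDC1 they mark the GC box GGGCGG, the core of the site of Sp1-type factors. ZSCAN4, PRAMEF6 and PRAMEF15 held neither run and are in lower case. The ZSCAN4 window is shown for the best known gene of the set, and the PRAMEF windows for how alike they are.
MBD3L2, chr19:7049071-7049370, plus strand: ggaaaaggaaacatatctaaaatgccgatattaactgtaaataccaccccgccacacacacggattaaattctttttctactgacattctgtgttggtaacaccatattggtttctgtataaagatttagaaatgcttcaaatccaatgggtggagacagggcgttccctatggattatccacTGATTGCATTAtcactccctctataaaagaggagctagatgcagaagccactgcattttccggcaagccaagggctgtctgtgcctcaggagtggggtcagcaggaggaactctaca
TRIM48, chr11:55261905-55262204, plus strand: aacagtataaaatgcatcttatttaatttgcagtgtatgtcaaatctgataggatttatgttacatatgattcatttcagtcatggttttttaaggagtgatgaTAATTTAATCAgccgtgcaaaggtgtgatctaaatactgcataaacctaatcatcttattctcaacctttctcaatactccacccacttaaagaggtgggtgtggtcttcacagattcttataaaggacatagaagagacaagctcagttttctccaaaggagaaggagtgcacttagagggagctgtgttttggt
TRIM51, chr11:55883047-55883346, plus strand: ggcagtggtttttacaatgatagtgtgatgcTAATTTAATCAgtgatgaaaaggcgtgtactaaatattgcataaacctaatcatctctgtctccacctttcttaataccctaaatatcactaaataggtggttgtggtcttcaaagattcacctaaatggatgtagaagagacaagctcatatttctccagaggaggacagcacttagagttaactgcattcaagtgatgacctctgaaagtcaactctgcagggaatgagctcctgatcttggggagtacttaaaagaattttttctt
KHDC1, chr6:73310110-73310409, minus strand: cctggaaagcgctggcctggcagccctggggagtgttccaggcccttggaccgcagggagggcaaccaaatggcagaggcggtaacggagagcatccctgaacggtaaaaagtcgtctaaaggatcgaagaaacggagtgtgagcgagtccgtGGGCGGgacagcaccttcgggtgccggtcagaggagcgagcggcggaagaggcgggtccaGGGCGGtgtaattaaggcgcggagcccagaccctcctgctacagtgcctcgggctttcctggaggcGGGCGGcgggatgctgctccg
ZSCAN4, chr19:57668685-57668984, plus strand: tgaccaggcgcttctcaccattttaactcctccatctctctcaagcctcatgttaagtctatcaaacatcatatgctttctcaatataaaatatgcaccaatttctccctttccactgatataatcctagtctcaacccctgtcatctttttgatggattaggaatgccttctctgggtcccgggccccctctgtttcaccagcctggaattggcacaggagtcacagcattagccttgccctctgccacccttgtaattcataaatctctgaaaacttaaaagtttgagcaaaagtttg
PRAMEF6, chr1:12947531-12947830, minus strand: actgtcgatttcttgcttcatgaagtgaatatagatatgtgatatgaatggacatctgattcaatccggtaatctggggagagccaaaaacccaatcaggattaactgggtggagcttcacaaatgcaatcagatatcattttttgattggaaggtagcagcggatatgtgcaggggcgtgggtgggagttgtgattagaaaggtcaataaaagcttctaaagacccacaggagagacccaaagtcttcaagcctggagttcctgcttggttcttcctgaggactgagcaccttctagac
PRAMEF15, chr1:13315331-13315630, plus strand: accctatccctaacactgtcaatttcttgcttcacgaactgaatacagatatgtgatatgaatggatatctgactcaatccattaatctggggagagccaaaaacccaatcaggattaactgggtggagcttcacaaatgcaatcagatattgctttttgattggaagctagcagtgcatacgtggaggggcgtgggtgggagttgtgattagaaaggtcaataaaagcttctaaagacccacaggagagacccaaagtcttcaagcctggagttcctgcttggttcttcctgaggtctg

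The match in MBD3L2 reads TGATTGCATTA, which is the searched run on the opposite strand, and begins 67 bases before the start. TRIM48 and TRIM51 hold the same letters, TAATTTAATCA, which begin 146 and 219 bases before the start. The run was found in 3 of the 10 genes, against 0.888% of all 35116 promoters of the same length and 0.595% of the 15954 promoters of genes tested. The GC box was found in 1 of the 10 genes, KHDC1, whose first promoter has 3 copies and whose second has none, against 45% of all promoters and 63.5% of those of genes tested. The letters TATAAA, the common form of the TATA box, were present on one strand or the other in 5 of the 10 genes and in 11.5% of all promoters. None of the matches overlapped one another. A match is a run of letters and no evidence that a factor sits there.

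Apart from KHDC1, the promoters were poor in G and C. Their G and C content ran from 36% in TRIM48 to 44.3% in PRAMEF6 and PRAMEF15 with a median of 41.7%, below the lower quartile of all promoters (47%, with a median of 58.7%). They held 1 to 5 CpG dinucleotides, where the median promoter held 14. The 2 promoters of KHDC1, with 65% and 71.7% G and C and 25 and 32 CpG, stood apart from the other genes. Aligned from end to end, the promoters of PRAMEF6 and PRAMEF15 shared 89.7% of their bases and those of TRIM48 and TRIM51 shared 61%. Over the 9 pairs within a family the identity was 50.3% to 89.7%, and over the 36 pairs from different families it was 45% to 54.7%. The probe sequences were not analysed here. Copies of such families are alike enough that a probe may also report a relative, so the members of a family were not counted as separate lines of evidence.

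**Figure D1:**
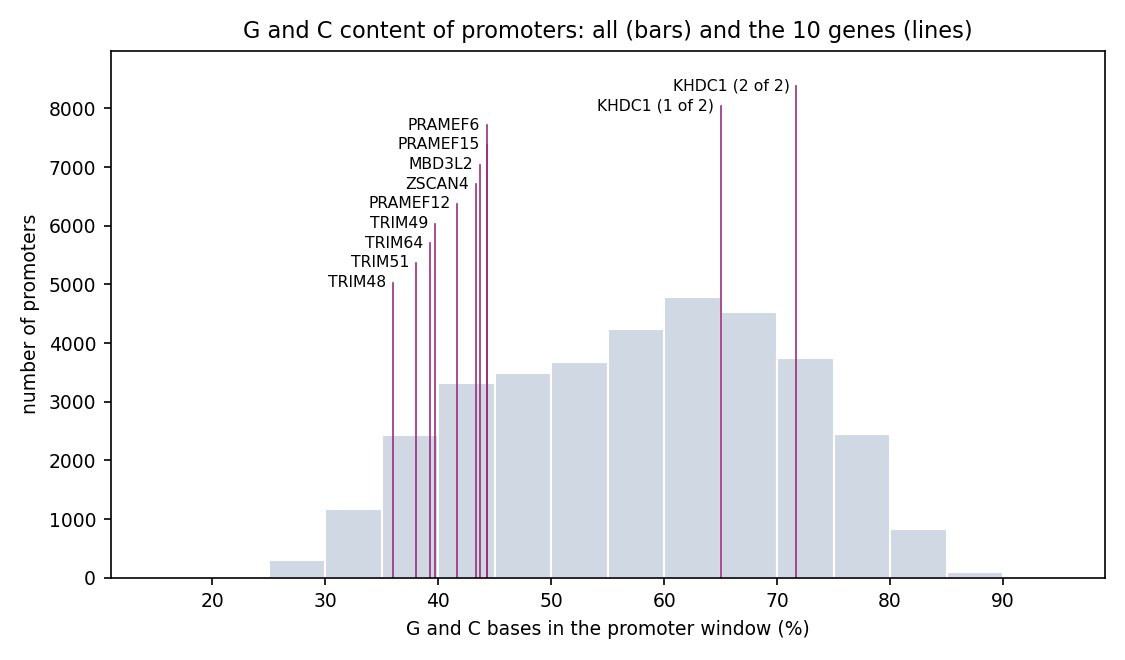
G and C content (%) of the 300-base promoter windows. Bars count all 35116 promoters in steps of 5 percentage points and each vertical line, labelled with its gene, is a promoter of the 10 genes (the height of the lines carries no value). The lines of 9 genes lie between 36% and 44.3%, and the 2 promoters of KHDC1 lie at 65% and 71.7%.

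ZSCAN4 encodes a zinc-finger protein with a SCAN domain that marks the cleavage stage and acts on telomeres. Its level was -4.52, -4.76 and -5.10 on the 3 untreated arrays, -2.15, -3.12 and -2.55 at 8 nM, and -7.99, -6.75 and -7.69 at 80 nM. All 8 nM arrays lay above all untreated arrays, and all 80 nM arrays lay below them. The difference between 8 nM and untreated cells was 2.19, or 4.55-fold, against an SD of 0.29 in untreated cells and 0.49 at 8 nM. In RNA from whole cultures, fewer cells that express a gene and less of its RNA in each cell cannot be told apart. At 80 nM the probe was below background on all 3 arrays, and the level was at least 2.16-fold lower than in untreated cells and at least 9.84-fold lower than at 8 nM. Here and below, such a bound sets the mean of the brighter group against the lowest level that counted as measured on each 80 nM array. Where the probe's own level was higher, that level was used. The lowest level is taken over all probes, and the limit of a given probe can lie higher. TRIM77 read -5.86 on 80 nM replicate 2 without counting as measured, where the lowest measured level was -6.07. Small bounds are therefore not firm.

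MBD3L2 encodes a relative of the methyl-CpG binding protein MBD3 that lacks the methyl-CpG binding domain, and KHDC1 a protein with a KH-type RNA-binding fold. MBD3L2 read -0.69, -1.31 and -1.47 without drug, 1.12, 0.39 and 0.55 at 8 nM, and -8.12, -6.76 and -7.23 at 80 nM. KHDC1 read -0.75, -1.82 and -1.76 without drug, 0.83, 0.10 and 0.25 at 8 nM, and -7.94, -8.02 and -7.56 at 80 nM. The groups did not overlap for either gene, and both were well above background on all untreated arrays and on none of the 80 nM arrays. MBD3L2 was 3.59-fold higher at 8 nM (log2 difference 1.84) and at least 26.9-fold lower at 80 nM, each against untreated cells. KHDC1 was 3.57-fold higher at 8 nM (log2 difference 1.83) and at least 22.1-fold lower at 80 nM. Between the concentrations the bounds were at least 96.6-fold for MBD3L2 and at least 78.7-fold for KHDC1.

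The TRIM genes encode tripartite-motif proteins with a RING finger, a class that holds many ubiquitin ligases, and TRIM48, TRIM49, TRIM51 and TRIM64 all lie on chromosome 11. TRIM49 read -0.55, -1.45 and -1.34 without drug, 1.15, 0.36 and 0.64 at 8 nM, and -4.83, -4.70 and -4.59 at 80 nM. It was the 1 gene of the 10 that stayed well above background on the 80 nM arrays, so both of its differences are measured ones. TRIM49 was 3.55-fold higher at 8 nM than in untreated cells (log2 difference 1.83) and 12.1-fold lower at 80 nM (log2 difference -3.59). From 8 to 80 nM its level differed 42.8-fold (log2 difference -5.42).

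TRIM64 read -4.26, -4.83 and -4.68 without drug, -1.85, -2.72 and -2.53 at 8 nM, and -8.09, -8.15 and -7.77 at 80 nM. Its difference at 8 nM was 2.22 or 4.66-fold, and at 80 nM it was at least 2.50-fold lower than in untreated cells and at least 11.6-fold lower than at 8 nM. TRIM48 and TRIM51 were near the background in untreated cells and measured on 1 of 3 untreated arrays each. TRIM48 read -5.06, -6.43 and -6.29 without drug, -3.31, -4.21 and -3.84 at 8 nM, and -7.99, -7.90 and -7.69 at 80 nM. TRIM51 read -5.38, -7.20 and -6.01 without drug, -4.03, -3.88 and -4.34 at 8 nM, and -8.20, -8.14 and -7.90 at 80 nM. Neither gene had overlapping groups, but with the untreated mean at the background no fold is given for 80 nM against untreated cells. The 8 nM difference was 2.14 for TRIM48 and 2.12 for TRIM51, with SDs in untreated cells of 0.75 and 0.93. Because 2 of the 3 untreated arrays were not above background for either gene, these differences too are limited by the background, and normexp background correction gave 0.75 for TRIM48 and 0.73 for TRIM51. From 8 to 80 nM the levels were at least 4.35-fold lower for TRIM48 and at least 3.54-fold lower for TRIM51.

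The PRAMEF genes encode leucine-rich repeat proteins related to the cancer-testis antigen PRAME and lie in a cluster on chromosome 1. PRAMEF12 read -2.82, -4.00 and -3.79 without drug, -0.94, -1.71 and -1.57 at 8 nM, and -7.97, -8.04 and -7.61 at 80 nM. PRAMEF6 read -4.05, -5.06 and -4.84 without drug, -2.43, -2.96 and -3.09 at 8 nM, and -8.15, -8.23 and -7.84 at 80 nM. In both genes the order of the groups was again 8 nM, untreated, 80 nM with no overlap. PRAMEF12 was 4.39-fold higher at 8 nM than in untreated cells and at least 5.17-fold lower at 80 nM, and between the concentrations at least 22.7-fold. For PRAMEF6 these values were 3.54-fold higher, at least 2.39-fold lower and at least 8.46-fold.

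PRAMEF15 was read by 2 probes that name the same transcript. The brighter probe, A_33_P3256933, read -0.78, -1.99 and -1.79 without drug, 0.58, 0.15 and -0.10 at 8 nM, and -7.15, -7.54 and -6.93 at 80 nM. By this probe the gene was 3.30-fold higher at 8 nM (log2 difference 1.72) and at least 21-fold lower at 80 nM, each against untreated cells, and at least 69.3-fold lower at 80 nM than at 8 nM. The second probe, A_33_P3394554, was measured on 1 untreated and 2 of the 8 nM arrays and did not pass the filter on dim probes. It read -5.64, -7.30 and -6.13 without drug, -4.18, -5.93 and -5.07 at 8 nM, and -7.99, -8.06 and -7.68 at 80 nM. Its means had the same order (difference 1.30 at 8 nM), but the untreated and 8 nM arrays overlapped.

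**Figure D2:**
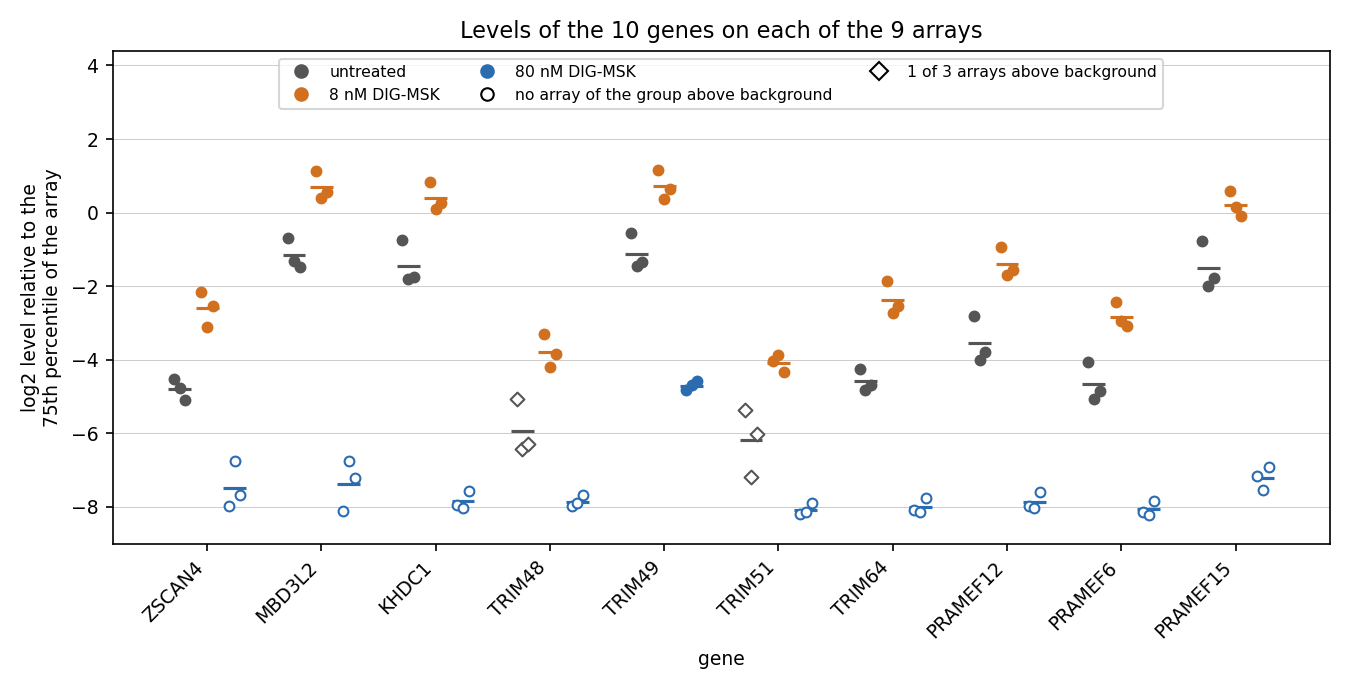
Level (log2 relative to the 75th percentile of the array, y axis) of each of the 10 genes (x axis) on the 3 untreated, 3 8 nM and 3 80 nM arrays, with a bar at the mean of each group; PRAMEF15 is shown by its brighter probe. Filled circles are groups with all 3 arrays well above background, open diamonds groups with 1 such array and open circles groups with none. In each gene the 8 nM arrays are the highest and the 80 nM arrays the lowest, and TRIM49 is the gene with filled circles at 80 nM.

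Over the 10 genes the difference between 8 nM and untreated cells ran from 1.72 to 2.22 with a median of 1.98. The difference between 80 nM and untreated cells ran from -6.40 in KHDC1 to -1.88 in TRIM51 with a median of -3.51, and that between 80 and 8 nM from -8.23 to -3.99 with a median of -5.53. At 80 nM 9 of the 10 genes were below background, so for them these last differences are limited by the background. They depend on how background was treated, and normexp background correction gave 0.73 to 1.73, -2.81 to -0.14 and -4.55 to -0.89 in the same order, with the sign of every gene kept. The medians over all genes tested were -0.06, 0.08 and 0.12 in the same order. All 10 genes had non-overlapping groups in each comparison, which was so for 15.8% of all genes in the higher direction at 8 nM, for 31.7% in the lower direction at 80 nM against untreated cells and for 25.5% in the lower direction at 80 nM against 8 nM.

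The study called a gene when it changed at least 1.5-fold up or to 0.67-fold down and limma gave an unadjusted p under 0.05. Applied to the levels and filter used here, this rule called 4.25% of all genes higher and 2.84% lower at 8 nM against untreated cells. At 80 nM against untreated cells it called 18.8% higher and 16.3% lower. These shares are not the study's own, which reported fewer genes at both concentrations. At 80 nM against 8 nM, 19.4% were called higher and 14.2% lower. With a Benjamini-Hochberg adjusted p under 0.05 in place of the unadjusted one, 3.71% were higher at 8 nM, 15.9% lower at 80 nM and 13.9% lower at 80 nM against 8 nM. Called higher at 8 nM and also lower at 80 nM were 165 genes, among them the 10 described here, which the choice of the genes fixed. Both comparisons share the untreated arrays. Genes called lower made up 40% of the calls at 8 nM, 46.5% at 80 nM and 42.2% between the concentrations, and with arrays scaled to 10 spike-in probes they made up 20.6%, 71.9% and 77.3%, where the median over all genes was 0.02, -0.20 and -0.24. Under that scaling the 10 genes differed by 1.81 to 2.30, by -6.67 to -2.16 and by -8.59 to -4.35, so their order of groups was the same relative to the shift.

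The 3 arrays of a group did not read the genes alike. Untreated replicate 1 was the highest of its group for all 10 genes, by 0.41 to 1.30 over the mean of the other 2 arrays (median 0.97). Replicate 1 at 8 nM was the highest of its group for 9 of the 10 genes, by a median of 0.65, and TRIM51 was the exception. Over all genes tested, the median of the same quantity was 0.02 on both arrays, and they were the highest of their group for 40.4% and 35.6% of genes. These shifts were smaller than the 8 nM differences of 1.72 to 2.22. Without untreated replicate 1 the median 8 nM difference of the 10 genes was 2.25, and without untreated replicate 2, the lowest array for 8 of the 10 genes, it was 1.71. Untreated replicate 1 had the lowest 75th percentile of its group (831.7), whereas 8 nM replicate 1 had one of 1144 next to 833.3 and 1170. The part of these signals in the result was not tested.

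**Figure D3:**
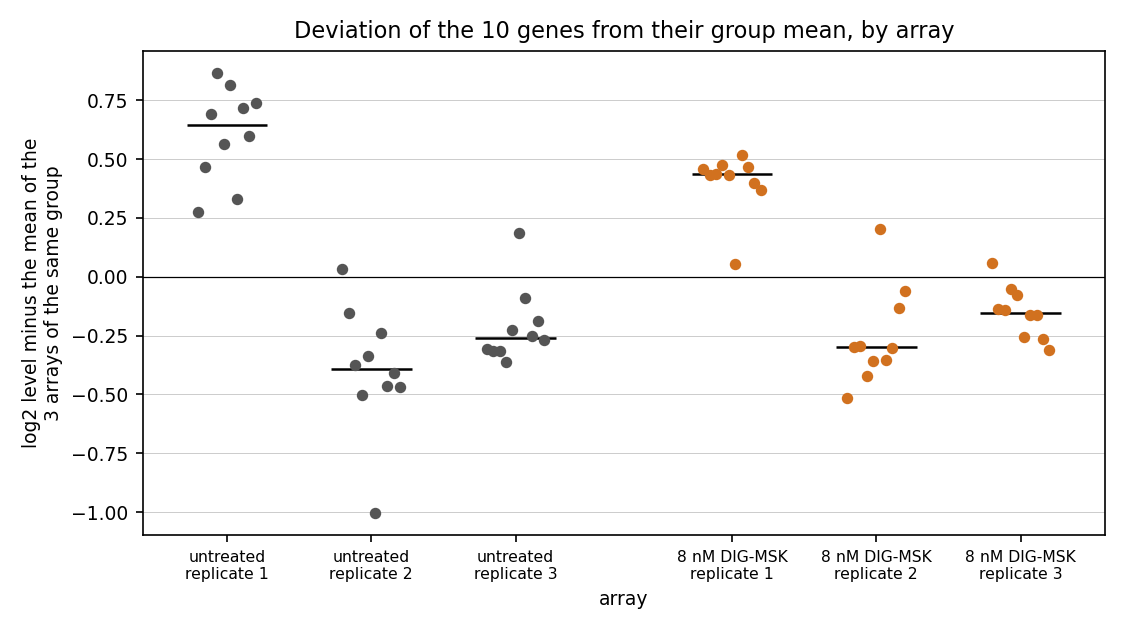
Deviation of each of the 10 genes from the mean of the 3 arrays of its group (log2, y axis) on the untreated and 8 nM arrays (x axis). Each point is a gene and each bar the median of the 10. Replicate 1 lies above the group mean for all 10 genes in untreated cells and at 8 nM.

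The families hold more genes than the 10, and 47 further genes of the same families or reported as DUX4 targets were listed. The array named a probe for 24 of them, 7 were below background on all 9 arrays and 15 passed the filter. Of these 15, 13 were called higher at 8 nM (11 by adjusted p) and none lower, with a median difference of 1.57 against -0.06 over all genes. At 80 nM 13 were called lower than in untreated cells (13 by adjusted p), with a median of -3.03 against 0.08 over all genes, and 13 were called lower than at 8 nM, with a median of -4.10 against 0.12. The list was made with earlier results of these data known, and many of its genes share sequence with the 10. Most were below background at 80 nM and passed the filter through the untreated and 8 nM groups, in which they were higher. PRAMEF1 and SLC34A2 passed it through the 8 nM group alone. The counts therefore add no independent weight.

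Of the 13 called genes, 7 belonged to the PRAMEF family. PRAMEF11 read -2.57 ± 0.56 (SD, n = 3) without drug, -0.87 ± 0.44 at 8 nM and -7.92 ± 0.21 at 80 nM. It rose by 1.71 at 8 nM (SE 0.30, limma adjusted p = 0.0091) and fell at 80 nM to below background, at least 10.1-fold under untreated cells (adjusted p = 2.7e-06). PRAMEF4 rose by 1.77 (adjusted p = 0.021) and fell at least 27-fold (adjusted p = 6.7e-06). PRAMEF1 and PRAMEF8 rose by 1.62 and 1.70 at 8 nM (limma adjusted p = 0.018 and 0.012), and PRAMEF7 by 0.85 (adjusted p = 0.018). PRAMEF14 was called higher by the unadjusted rule, with a difference of 1.57 that missed the adjusted threshold in limma (adjusted p = 0.077), and its call was lost without untreated replicate 2 (1.23) or without 8 nM replicate 1 (1.30). With the replicate number as a block on the untreated and 8 nM arrays alone, limma gave PRAMEF14 an adjusted p of 0.02 and PRAMEF7 one of 0.064. At 80 nM PRAMEF1, PRAMEF7, PRAMEF8 and PRAMEF14 fell below background, at least 1.36-fold, 1.22-fold, 2.20-fold and 6.13-fold under untreated cells. PRAMEF1 was measured on 2 of the 3 untreated arrays and entered the test through the 8 nM group, in which it was high. PRAMEF5 rose by 1.56 (adjusted p = 0.0077) and fell by 2.24 at 80 nM on a probe that stayed above background on all arrays, while its second probe went below background there, at least 5.73-fold under untreated cells. These 2 probes of one gene were similar at 8 nM (1.56 and 1.76) and apart at 80 nM.

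Of the TRIM family, TRIM43 rose by 1.65 at 8 nM (SE 0.31, limma adjusted p = 0.011) and fell at 80 nM at least 4.23-fold under untreated cells (adjusted p = 1.5e-05). Its second probe read the same direction, 1.47 and at least 3.88-fold. TRIM49D1, a near copy of TRIM49, rose by 1.58 (adjusted p = 0.039) and fell at least 12.9-fold (adjusted p = 1.7e-05). RFPL4A and RFPL4B, which encode RING-type proteins of the ret finger protein-like family, differed by 1.09 (adjusted p = 0.042) and 1.45 (adjusted p = 0.094, not called by the adjusted rule and with overlapping groups). The unadjusted call of RFPL4B was lost without untreated replicate 1 (1.18), untreated replicate 3 (1.04) or 8 nM replicate 1 (1.38). UBTFL1, a relative of the RNA polymerase I factor UBTF, rose by 0.82 (limma adjusted p = 0.014, and 0.066 with that block), although its dimmer probe gave -0.18. SLC34A2, a sodium-phosphate cotransporter outside these families, entered the test through the 8 nM group and was measured on 1 of 3 untreated arrays. It rose by 1.74 at 8 nM (adjusted p = 0.022) and was below background at 80 nM, where no fold is given because the untreated mean lay at the background. The 2 genes that were not called in any comparison, named after their values were seen, were ZNF280A with -0.15 at the low and 0.26 at the high concentration and HNRNPCL1 with -0.27 and -0.52.

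**Figure D4:**
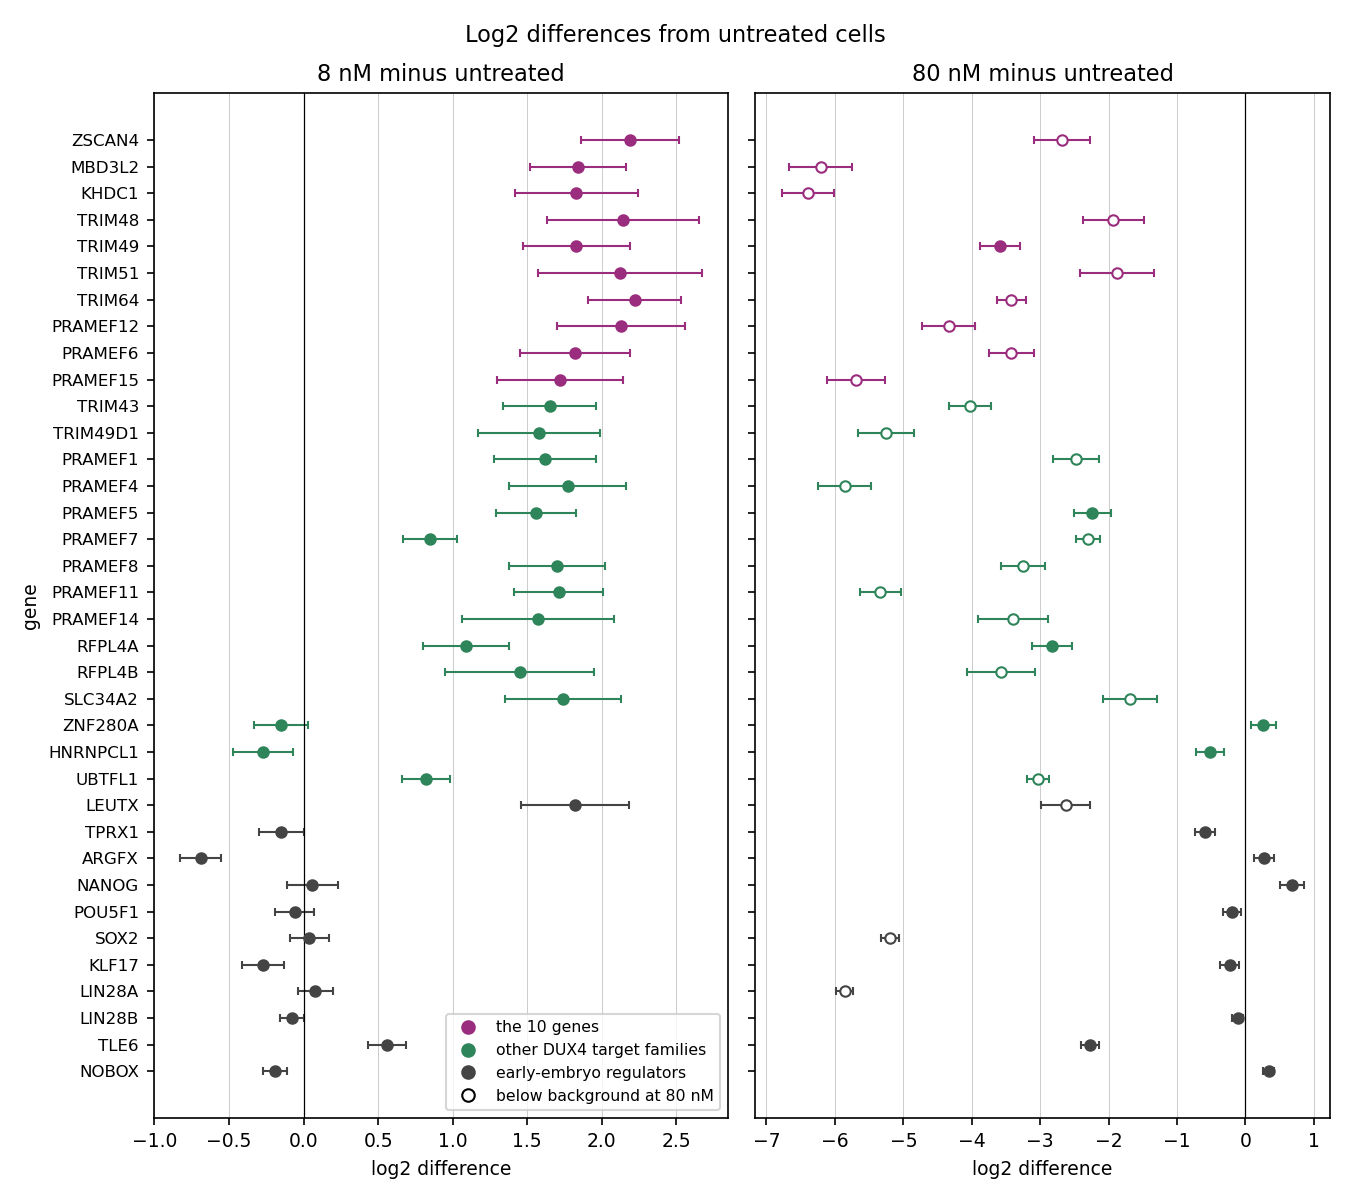
Log2 difference from untreated cells at 8 nM (left) and 80 nM (right) for the 10 genes, the 15 tested genes of the wider list and the 11 tested regulators of the early embryo. Bars are standard errors, from the SDs of both groups for the 10 genes and from limma for the others; open circles are genes below background on all 80 nM arrays, whose differences are bounded by the background. LEUTX differs like the 10 genes, while SOX2 and LIN28A lie near 0 at 8 nM and far below 0 at 80 nM.

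Regulators of the early embryo were listed as well, from homeobox genes that act beside DUX4 to pluripotency factors and oocyte proteins. Of 34 genes, 28 had a named probe, 14 were below background on all 9 arrays, and 11 were tested. At 8 nM 1 was called higher and 1 lower, against 4.25% and 2.84% of all genes, and the median difference was -0.06, the same as over all genes. LEUTX, a paired-like homeobox gene of the cleavage stage, was measured on 2 of the 3 untreated arrays and also entered the test through the 8 nM group. It rose by 1.82 (SE 0.36, limma adjusted p = 0.014), and at 80 nM it fell below background, at least 1.36-fold under untreated cells (adjusted p = 0.00038) and at least 4.81-fold under 8 nM (adjusted p = 2.2e-05). ARGFX, another homeobox gene of this class, fell by 0.69 at 8 nM (adjusted p = 0.015) and was 0.27 above untreated cells at 80 nM (adjusted p = 0.13). Its call at 8 nM was lost without 8 nM replicate 2 (-0.54), after normexp correction (-0.33) and on the authors' log2 values (-0.43), and its limma adjusted p was 0.073 with the replicate block on the untreated and 8 nM arrays alone. DUXA, itself a target of DUX4, was well above background on 1 of the 9 arrays and was not tested.

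At 80 nM 5 of the 11 regulators were called lower than in untreated cells and 1 higher, against 16.3% and 18.8% of all genes, with a median of -0.23 against 0.08. SOX2, a pluripotency factor, read -2.94 ± 0.08 (SD, n = 3) without drug, -2.89 ± 0.14 at 8 nM and -8.12 ± 0.25 at 80 nM, a fall of at least 7.84-fold (limma adjusted p = 3.5e-08). LIN28A, an RNA-binding protein that blocks let-7, read -0.51 ± 0.04, -0.43 ± 0.10 and -6.37 ± 0.23 in the same order, at least 42.1-fold down (adjusted p = 1.1e-08). Both were below background at 80 nM, as 9 of the 10 genes were, and neither was called at 8 nM (0.04 and 0.08, adjusted p = 0.84 and 0.66). TLE6, a protein of the subcortical complex of the oocyte, fell by 2.27 at 80 nM (adjusted p = 2.5e-06), and TPRX1 fell by 0.59 (adjusted p = 0.011), a call lost without untreated replicate 1 (-0.52) or 80 nM replicate 3 (-0.49). NANOG rose by 0.68 (adjusted p = 0.0092), which became 0.41 and lost its call when arrays were scaled to the spike-in probes, as it did without untreated replicate 1 (0.54).

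Repressors that keep DUX4 or its targets silent in adult cells formed the third list, of 34 genes, of which 33 were tested. At 8 nM 1 was called, UHRF1, the partner of the maintenance methyltransferase, which fell by 0.74 (SE 0.13, limma adjusted p = 0.0099, and 0.051 with the replicate block on the untreated and 8 nM arrays alone) and read -1.17 on a second probe. By the unadjusted rule 2.84% of all genes were lower. Without 8 nM replicate 2, 3 were called. The median over the list was -0.05. SMCHD1 and LRIF1, the repressors tied to the DUX4 repeat, were named for that role and not for a call, and they read 0.01 and 0.03 at 8 nM and 0.27 and 0.43 at 80 nM with no call (limma adjusted p = 0.95, 0.87, 0.08 and 0.0062, the last under the fold limit). A second SMCHD1 probe read -0.54 at 8 nM and -0.38 at 80 nM with no overlap with the untreated arrays, and another read -0.22 and 0.17, so the direction of SMCHD1 is not settled. At 80 nM 4 of the 33 repressors were called lower and 3 higher, with a median of -0.02 against 0.08 over all genes. These shares do not exceed the 16.3% of all genes called lower and the 18.8% called higher. The subunit CHAF1A of the chromatin assembly factor fell by 1.13 (adjusted p = 1.6e-05), the de novo methyltransferases DNMT3A and DNMT3B fell by 1.10 and 0.83 (adjusted p = 6.4e-06 and 0.00029), and MGA, a subunit of a Polycomb complex, fell by 0.63 (adjusted p = 0.0023). The other probes of DNMT3A read -2.72 and -0.14.

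The 3 that rose at 80 nM were CBX5 (0.63, limma adjusted p = 0.0001), MBD2 (0.61, adjusted p = 0.00011) and HDAC1 (0.59, adjusted p = 5.8e-05), and with spike-in scaling these became 0.35, 0.33 and 0.32 and were no longer called. CBX5 also lost its call without untreated replicate 1 (0.58) and HDAC1 without untreated replicate 3 (0.58). The probes of MBD2, a methyl-CpG binding protein of the NuRD complex, disagreed, since a dimmer probe was below background at 80 nM and at least 24.7-fold under untreated cells. The second probe of CBX5 read -0.74 at 80 nM. Neither gene therefore has a settled direction at 80 nM.

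To find the genes whose pattern over the 9 arrays was most like that of the 10, each gene with a symbol was correlated with the mean of their standardized levels. This is a description over 9 arrays that share groups, slides and dose, with no test. Of 13969 genes compared, 368 had an r above 0.95, and the 10 genes themselves had values between 0.963 (TRIM51) and 0.999. The 10 most alike were WDR54, PRAMEF8, TRIM43 and ATF3 (each 0.996), MPI, PRAMEF5 and FAM43B (each 0.995), IL4I1 (0.994), COQ10A (0.993) and PRAMEF1 (0.992). Of them, 4 belong to the PRAMEF and TRIM families. The others followed the same order of groups with far smaller differences. ATF3, a stress-induced transcription factor, read 0.72, 0.38 and 0.55 without drug, 1.10, 0.88 and 1.02 at 8 nM, and -0.58, -0.54 and -0.49 at 80 nM, a difference of 0.45 at 8 nM and of -1.08 at 80 nM. MPI, an enzyme of mannose metabolism, differed by 0.14 and -0.26.

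The genes next to the 10 along the chromosome were used to see whether the pattern extended beyond the families. The nearest tested gene on each side, outside the lists and outside the families of the 10 by name, gave 14 different neighbours. They lay from 18.3 kb (ZNF211) to 4850 kb (LOC646813, before TRIM48) away, so not all of them were close to the genes. At 8 nM 1 of the 14 was called higher and 13 were not called, against 4.25% of all genes called higher, with a median difference of -0.17. The called neighbour was LRRC38, named for this position, which encodes a leucine-rich repeat subunit of potassium channels and lies 159 kb beyond PRAMEF15. LRRC38 was measured on 1 untreated array, on all 8 nM arrays, through which it entered the test, and on no 80 nM array. It rose by 1.90 at 8 nM (limma adjusted p = 0.00026), and at 80 nM it was at least 1.33-fold under untreated cells (adjusted p = 2.1e-05) and at least 4.96-fold under 8 nM (adjusted p = 4.4e-07). At 80 nM 4 of the 14 neighbours were called higher than in untreated cells, 3 lower and 7 not, against 18.8% and 16.3% of all genes. ZNF211, 18.3 kb from ZSCAN4, read 0.53 at 8 nM and 0.93 at 80 nM, and ZNF551 on its other side read -0.19 at both.

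Outside the 10 genes, 89 tested genes had a promoter with the run TAANNNAATCA. Of these, 13 (14.6%) were called higher at 8 nM, against 4.91% of the 11096 tested genes with a promoter in the table, and 26 (29.2%) were called lower at 80 nM, against 16.2%. In the opposite directions 4 (4.49%) were lower at 8 nM, against 2.14%, and 19 (21.3%) higher at 80 nM, against 17.3%, so the shares were above those of all genes both ways. Without the genes of the lists above, 84 remained, with 8 (9.52%) called higher at 8 nM and 21 (25%) lower at 80 nM, and with 4 (4.76%) lower at 8 nM and 19 (22.6%) higher at 80 nM. Their median difference was 0.04 at 8 nM and -0.01 at 80 nM, against -0.02 and 0.05 over all tested genes with a promoter. On the lists, TRIM49D1, PRAMEF7, PRAMEF8, RFPL4A and LEUTX held the run, and all 5 were among the genes called higher at 8 nM. PRAMEF1, PRAMEF4, PRAMEF5, PRAMEF11, PRAMEF14, RFPL4B, SLC34A2 and UBTFL1 did not hold it and were called higher too. ZNF280A, HNRNPCL1, NANOG, SOX2, KLF17, LIN28B, TLE6 and NOBOX did not hold it and were not called at 8 nM. TRIM43, which was called higher, had no promoter among those searched for the run. Some tested regulators, ARGFX, TPRX1 and LIN28A among them, had none either. Of the 15 tested genes of the wider list, 13 were called higher. These are counts without a test.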

How the data were processed

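Total RNA of A2780 cells was measured on 9 one-colour Agilent arrays, 3 for each of the groups untreated, 8 nM and 80 nM DIG-MSK, as the labels give them. The methods call them biological replicates. The authors extracted spots with Agilent Feature Extraction 10.7.3.1, whose processed intensity, as deposited, has the background subtracted and no scaling from array to array. Log2 values that the authors deposited in a separate table served as an alternative. The labels and the methods name different labeling kits.

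From the processed intensity, log2 was taken and the 75th percentile of each array over gene probes was subtracted. Of 62976 spots, 4259 controls and outlier spots were left out, and spots of a probe were averaged. No gene spot was saturated (0). Probes had to be well above background throughout 1 group or more (26433 of 42405 were), and a gene was represented by its probe with the highest mean level. Of 26576 RefSeq probes, 25713 were named through RefSeq on GRCh38.p14. Replicates within a group correlated with r between 0.9891 and 0.9957. The number of arrays limits the precision.

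Comparisons used limma 3.58.1 in R 4.3.3 on all 9 arrays, with Benjamini-Hochberg adjustment over 21813 genes, and the procedure was tested on simulated data. Same-numbered untreated and 8 nM arrays deviated together (r = 0.113, 0.101 and 0.162), and differently numbered ones had r between -0.124 and -0.003. Same-numbered pairs with the 80 nM arrays had r between -0.124 and 0.016. An 8 nM and an 80 nM array of different numbers reached 0.125, so these values do not settle a pairing, and nothing in the labels states one. The main fit used no pairing, and the replicate number entered only as a block in alternatives. On the untreated and 8 nM arrays alone, the limma SE of LEUTX was 0.40 without the block and 0.11 with it. For UBTFL1 these were 0.16 and 0.15. The SEs and adjusted p values at 8 nM therefore depend on this choice. Named are the 10 genes, genes of the 3 lists called with an adjusted p under 0.05 (at most 10 a list, the largest differences first), measured paralogs, and the 10 genes most alike in pattern. The members, the lists and the tests were chosen with earlier results of these data known. Alternatives were normexp background correction (offset 50, on median spot signals), quantile normalization, spike-in scaling, the authors' log2 values, no filter, the mean of a gene's probes, a replicate block, also on the untreated and 8 nM arrays alone (chosen after the data were seen), calls by adjusted p, and leaving out each array in turn.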

Additional observations from a re-analysis of the deposited data

How the results depend on the processing

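Of 390 values of the 10 genes under the alternatives, 330 moved by less than the SD between arrays, 60 moved by more and 0 changed sign. Leaving out an array cannot move a difference by more than that SD, so all values without an array were bound to be among the 330. The 60 therefore all came from the changes of background correction or scaling. The size of the difference at 80 nM depends on the background correction, since normexp with its offset compresses dim probes by construction. With normexp the median of the 10 genes was 1.36 at 8 nM, -0.87 at 80 nM and -2.22 between the concentrations. With the authors' log2 values the medians were -1.45 at 80 nM and -3.05 between the concentrations, and spike-in scaling gave -5.89 for the latter. TRIM48 at 80 nM against untreated cells read -0.14 with normexp and -0.36 with the authors' values. Leaving out each array in turn, the medians ranged from 1.71 to 2.25, from -3.69 to -3.28 and from -5.71 to -5.29.

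The number of genes called at 8 nM, 1546, was 748 with normexp, 905 with the authors' values and 1398 to 2108 with an array left out. At 80 nM 7655 became 4752 with normexp (7346 to 7750 with an array left out), and between the concentrations 7332 became 4305 (7187 to 7512). The wider DUX4 list at 80 nM went from 13 to 8 calls with normexp, and with an array left out it had 11 to 13 calls at 8 nM. The regulators went at 8 nM from 2 to 1 with normexp and with the authors' values (1 to 3 with an array left out, 1 without 8 nM replicate 2) and at 80 nM from 6 to 3 with normexp (4 to 6). The repressors had 1 call at 8 nM, and 1 to 3 with an array left out, 3 without 8 nM replicate 2. The replicate block gave 1539, 7625 and 7310 calls for the 3 comparisons and changed the count of no list. On the untreated and 8 nM arrays alone, a choice made after the data were seen, the fit with the replicate block called 1639 genes and the fit without it 1502, with 13, 2 and 1 calls in the wider list, the regulators and the repressors in both. Compared with the main fit by adjusted p, that fit with the block lost the calls of PRAMEF7, UBTFL1, ARGFX and UHRF1. It gained that of PRAMEF14 and changed no other call of a list gene. Compared with the fit without the block on the same arrays, it lost the adjusted-p calls of PRAMEF7, UBTFL1 and UHRF1. It gained those of PRAMEF14, PRAMEF1, RFPL4A, SLC34A2 and TRIM49D1, while ARGFX was called in neither fit. Of 1105 values of called list genes, 1052 kept their call, 50 lost it, and 3 reversed, all with the mean of a gene's probes, namely CBX5 (-0.06 at 80 nM) and MBD2 (-2.02 against untreated cells and -1.91 against 8 nM). The cause of changes other than those of normexp was not tested.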
